A study of Mus musculus with 2 samples.

Results

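Cntnap5a, Dner, Nrp2, Epha4, Map2 and Kif1a are 6 mouse genes best known from neurons, where their products take part in cell adhesion, axon guidance and transport along microtubules. They were followed here in LβT2 cells, an immortalized mouse line derived from pituitary gonadotropes, after 40 min with vehicle or with 2 nM gonadotropin-releasing hormone (GnRH), the hypothalamic peptide that drives secretion of the gonadotropins. The 6 genes are 6 of the 1068 genes whose counts were analysed. They were selected on values measured in these same libraries (their UMI counts, the ratio of GnRH to vehicle, the share of cells with a UMI, the spread between cells and their correlations), so those values are given as a description and nothing was tested.

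Each treatment was represented by 1 library of cells at passage 15, profiled one by one in droplets (GEM Drop-seq), an assay that reads the 3′ ends of transcripts. A unique molecular identifier (UMI) marks each captured transcript, so a UMI count is a count of molecules. The vehicle library held 1992 cells and the GnRH library 1889. LβT2 is a single tumour-derived line and not a pituitary, and with 1 library per treatment no difference has a replicate check. All intervals are 95% intervals of counting error only, and differences between cultures or libraries cannot be told apart from the treatment.

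The analysed genes, of which 1062 were placed on chromosome 1 and the rest could not be placed, summed to 1126320 UMIs with vehicle and 1118763 with GnRH, a median per cell of 543.5 and 561. Levels are given as CPM, a gene's UMIs scaled to a common total of these UMIs, not to the whole transcriptome. As a check of the labels, the early response gene Btg2 was at 931 CPM with vehicle and 29953 CPM with GnRH. Of 8 gonadotrope markers, 3 were among the analysed genes, and all were well expressed in both libraries: Scg2 (secretogranin II, a protein of secretory granules) at 70103 and 67837 CPM, and the inhibin subunit genes Inhbb at 3552 and 2926 CPM and Inha at 1797 and 2039 CPM. Lhb, Fshb, Cga, Gnrhr and Nr5a1 were not analysed here. Among markers of other cell types, 7 (the glial marker Cdh19, the fibroblast marker Col3a1 and 5 of blood and immune cells) had no UMI in either library. Together 3 muscle genes had 36 and 38 UMIs.

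Endocrine cells of the pituitary share much of their machinery with neurons: they are electrically excitable, they store peptide hormones in granules that motors carry along microtubules, and they touch and signal to one another through surface proteins. Cntnap5a encodes a contactin-associated adhesion protein of the neurexin family. Dner encodes a transmembrane protein with EGF-like repeats that can engage Notch. Nrp2 and Epha4 encode guidance receptors, a co-receptor for semaphorins and vascular endothelial growth factors and a receptor tyrosine kinase for ephrins. Map2 encodes a microtubule-associated protein of dendrites, and Kif1a a kinesin that carries synaptic vesicle precursors and dense-core vesicles.

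In GRCm38, Cntnap5a (ENSMUSG00000070695) spans chromosome 1 from 115684756 to 116587323 on the plus strand. At 903 kb it was the longest of the 409 genes that reached 100 UMIs over both libraries, whose median span was 31.3 kb. Dner (ENSMUSG00000036766; 84369839 to 84696221, minus strand) spans 326 kb, Map2 (ENSMUSG00000015222; 66175273 to 66442583, plus strand) 267 kb and Kif1a (ENSMUSG00000014602; 93015464 to 93101951, minus strand) 86.5 kb. Epha4 (ENSMUSG00000026235; 77367185 to 77515088, minus strand) spans 148 kb and Nrp2 (ENSMUSG00000025969; 62703285 to 62818695, plus strand) 115 kb, so all 6 were longer than that median. Other annotated genes overlap 5 of the 6, the exception being Kif1a. Dner shares its strand with Gm37959 and Gm37925, Map2 faces the antisense gene Gm10558, and Nrp2 faces the antisense gene Gm29083 and shares its strand with Gm37121. Short RNA genes make up the remaining overlaps. The use of strand in counting is not given in the sources used here, so some UMIs of these genes could belong to an overlapping gene.

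The upstream sequences of Dner, Map2 and Kif1a are shown because these genes reached 100 UMIs and differ in composition. RefSeq promoters matched 5 of the 6 genes, all but Cntnap5a. Each is the 250 bases before a RefSeq transcription start in GRCm38.p6, 5′ to 3′ on the gene's strand. Capitals mark GGGCGG (the GC box bound by Sp1-like factors) and TGACG (the core of the cyclic AMP response element), on either strand.
Dner, chr1:84696222-84696471, minus strand: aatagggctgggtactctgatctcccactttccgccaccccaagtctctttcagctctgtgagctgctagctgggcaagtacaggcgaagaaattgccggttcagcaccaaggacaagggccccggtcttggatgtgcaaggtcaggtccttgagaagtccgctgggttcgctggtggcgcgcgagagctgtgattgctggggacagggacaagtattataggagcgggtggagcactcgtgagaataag
Map2, chr1:66175079-66175328, plus strand: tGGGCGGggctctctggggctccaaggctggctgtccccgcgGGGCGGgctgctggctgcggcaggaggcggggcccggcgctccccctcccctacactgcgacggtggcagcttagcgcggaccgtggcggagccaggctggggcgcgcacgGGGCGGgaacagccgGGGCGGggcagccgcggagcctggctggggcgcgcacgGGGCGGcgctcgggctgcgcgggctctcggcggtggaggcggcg
Kif1a, chr1:93101875-93102124, minus strand: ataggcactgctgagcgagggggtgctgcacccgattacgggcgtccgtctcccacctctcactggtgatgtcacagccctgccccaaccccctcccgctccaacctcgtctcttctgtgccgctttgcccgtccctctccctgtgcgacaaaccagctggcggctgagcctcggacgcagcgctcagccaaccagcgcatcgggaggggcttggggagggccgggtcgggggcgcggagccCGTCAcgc
Map2 held GGGCGG 5 times at 81.2% G and C. Kif1a held TGACG 1 time and no GGGCGG at 69.2%. Neither string, and no TATAAA, was in the window of Dner at 56.8%. Nrp2 held GGGCGG 5 times, and Epha4 held GGGCGG and TGACG 1 time each. A second start of Kif1a, chr1:93082481-93082730, held none of them. In the 250 bases before the start of 32851 mouse promoters, GGGCGG occurred in 32.7%, TGACG in 17.8% and TATAAA in 12.4%. The median G and C content was 52.4%. A match is a match of letters only.

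The 6 genes covered a range from among the most abundant analysed genes to near absence. Cntnap5a ranked 8 of 621 detected genes with vehicle and 9 of 622 with GnRH, Map2 ranked 88 and 106, Kif1a 159 and 171, Dner 395 and 415, Epha4 460 and 444 and Nrp2 545 and 560. The order Cntnap5a, Map2, Kif1a, Dner, Epha4, Nrp2 was the same in both libraries. The intervals of neighbours in it did not overlap, apart from Epha4 and Nrp2 in the vehicle library. As 3′ tags, UMIs count about 1 tag per captured molecule, so these levels were not divided by length.

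Cntnap5a had 21387 UMIs with vehicle, or 18988 CPM (18735 to 19245), and 19175 UMIs with GnRH, or 17140 CPM (16898 to 17384). Alone it took 1.90% and 1.71% of the analysed UMIs. A vehicle-treated cell held a median of 9 Cntnap5a UMIs (interquartile range 4 to 15, highest 67) and a GnRH-treated cell 8 (4 to 14, highest 56). At least 1 UMI was found in 95.3% and 94.2% of cells. With every cell thinned at random to 300 UMIs, which left 1773 vehicle and 1781 GnRH cells and left out 219 and 108 shallower ones, the shares were 93.8% (92.6 to 94.9) and 92.7% (91.3 to 93.8). How many of these UMIs came from free RNA could not be measured, so the shares are of cells with a UMI.

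The log2 ratio of Cntnap5a, GnRH over vehicle, was -0.15 (-0.18 to -0.12), and the median over the 409 genes was -0.09. Relative to that median the difference was -0.05, so Cntnap5a stood close to the typical gene. Cntnap5b, its closest relative among the analysed genes and a gene of the adhesion list named after its count was seen, had 0 UMIs in both libraries, where a count of 0 allows up to 3 UMIs per library by a one-sided limit.

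**Figure D1:**
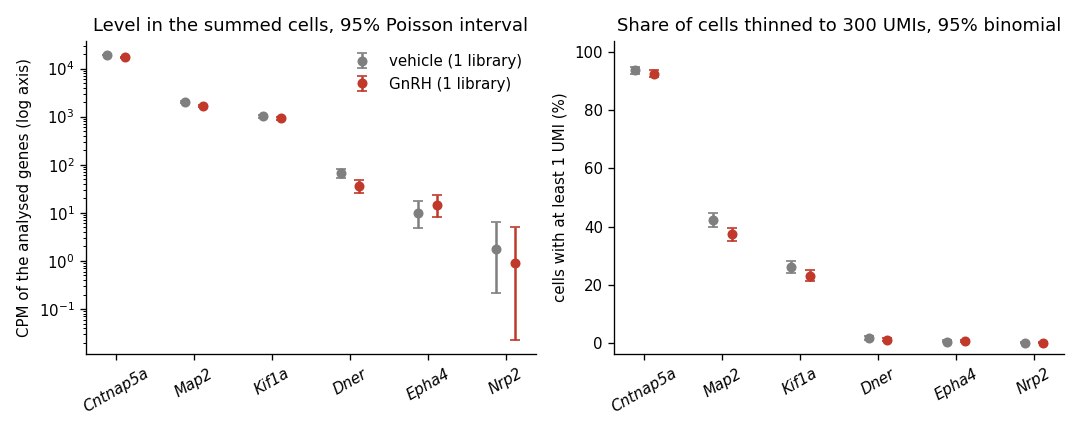
Left, level of each gene in CPM of the analysed genes (log axis) in the vehicle and the GnRH library, with 95% Poisson intervals. Right, percent of cells thinned to 300 UMIs that held at least 1 UMI, with 95% binomial intervals; Cntnap5a was found in over 92% of cells, Map2 and Kif1a in 23.1% to 42.2%, and the other 3 genes in under 2%.

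The microtubule and transport genes came next. Map2 had 2272 UMIs with vehicle, or 2017 CPM (1935 to 2102), and 1869 with GnRH, or 1671 CPM (1596 to 1748). Cells with a Map2 UMI made up 59.0% and 56.0% as deposited, and 42.2% (39.9 to 44.5) and 37.3% (35.0 to 39.6) at 300 UMIs. The level and the share were both lower in the GnRH library, with a log2 ratio of -0.27 (-0.36 to -0.18), or -0.18 relative to the median gene. A value this low or lower was held by 56 of the 409 genes.

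Kif1a had 1141 UMIs with vehicle, or 1013 CPM (955 to 1074), and 1029 with GnRH, or 920 CPM (864 to 978). Its log2 ratio was -0.14 (-0.26 to -0.02), or -0.04 relative to the median gene. Cells with a UMI made up 40.9% and 38.4%, and at 300 UMIs 26.0% (24.0 to 28.1) and 23.1% (21.2 to 25.2). Kif1a and Cntnap5a thus differed between the libraries by about as much as the median gene did.

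Dner was rare. It had 75 UMIs in 53 vehicle cells and 40 UMIs in 32 GnRH cells, or 66.6 CPM (52.4 to 83.5) and 35.8 CPM (25.5 to 48.7), a log2 ratio of -0.90 (-1.49 to -0.32). Cells with a UMI made up 2.66% (2.00 to 3.47) and 1.69% (1.16 to 2.38), intervals that overlap. At 300 UMIs the shares were 1.55% (1.05 to 2.27) and 1.07% (0.643 to 1.66). The log2 ratio of the unthinned shares was -0.65, and cells with a UMI held 1.42 UMIs on average with vehicle and 1.25 with GnRH. Over 20 random thinnings to 300 UMIs the log2 ratio of the level averaged -0.67 and ranged from -1.27 to -0.07; the ratio rests on few molecules.

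The guidance receptors were at the edge of detection. Epha4 had 11 UMIs in 9 vehicle cells and 16 UMIs in 14 GnRH cells, or 9.77 CPM (4.88 to 17.5) and 14.3 CPM (8.17 to 23.2). Its log2 ratio of 0.55 had an interval from -0.65 to 1.80, so a difference in either direction was not detectable at this depth. Nrp2 had 2 UMIs with vehicle and 1 with GnRH, each in a separate cell, and no ratio was formed. The shares of cells were 0.452% and 0.741% for Epha4 and 0.10% and 0.0529% for Nrp2. UMIs from free RNA could not be measured in a line with no other cell type, so whether shares this low reflect expression was not tested.

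Of the 6 genes, 4 reached 100 UMIs over both libraries. The count of these 4 at least 2-fold different was 0, where 1.22% of the 409 genes were. Dner alone was at least 1.5-fold different, in the lower direction, where 4.16% of the 409 genes were past 1.5-fold in either direction. The log2 ratios of all 4 were below 0, as were those of 305 of the 409 genes. Under TMM scaling, which moved that number furthest in that direction, 207 of the 409 were below 0, and the 4 genes still were. The median of the 4 was -0.21 and that of the 409 was -0.09. These contrasts were among the values the genes were chosen by, and nothing further is read from them.

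Genes of related function gave the context. Of 52 genes listed for adhesion, guidance and outgrowth, microtubules and transport, and the synapse and excitability, 48 were analysed and 28 had at least 100 UMIs. None of the 28 was 1.5-fold higher or lower, where 4.16% of the 409 genes were, so few or none would be so at that share. Of their log2 ratios 22 were negative and 6 positive (14 and 14 under TMM scaling), with a median of -0.09, the same as that of all 409 genes.

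Among adhesion genes, 6 of the 13 analysed had at least 100 UMIs and 5 had none, and the median log2 ratio of the 6 was -0.09. Dpp10, a subunit of voltage-gated potassium channel complexes, was at 3796 and 3420 CPM, with a log2 ratio of -0.15 (-0.21 to -0.09). Nfasc, the cell adhesion molecule neurofascin, was at 2569 and 2455 CPM and Lrrn2 at 1317 and 1256 CPM. The glypican gene Gpc1 (371 and 342 CPM), the sulfotransferase gene Chst10 (228 and 248 CPM) and the adhesion G protein-coupled receptor gene Adgrb3 (116 and 103 CPM) were lower. All 6 were well below the 18988 CPM of Cntnap5a.

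Of the guidance and outgrowth genes 9 of the 11 analysed had at least 100 UMIs, with a median log2 ratio of -0.02. Serpine2, a secreted protease inhibitor that promotes neurite outgrowth, was the most abundant at 11539 and 10039 CPM. The semaphorin gene Sema4c was at 381 and 529 CPM, a log2 ratio of 0.47 (0.29 to 0.66), and the transcription factor gene Klf7 at 3643 and 4837 CPM, a log2 ratio of 0.41 (0.35 to 0.47). Their intervals lay above 0. Those of Serpine2, at a log2 ratio of -0.20 (-0.24 to -0.16), and of Srgap2, which shapes membrane protrusions, at -0.19 (-0.28 to -0.10), lay below 0.

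All 14 microtubule and transport genes analysed had a UMI, and 10 had at least 100, with a median log2 ratio of -0.11 and a range of -0.31 to 0.02. The log2 ratio of Map2 lay inside this range, as did that of Kif1a. Hdlbp, an RNA-binding protein, was the most abundant at 4355 and 4112 CPM. Actr1b, a subunit of dynactin, the partner of the dynein motor, was at 2199 and 1990 CPM, and Clasp1, which holds microtubule plus ends, at 1291 and 1290 CPM. The adaptor gene Trak2, which links kinesin to mitochondria, was at 574 and 543 CPM, below Kif1a. The lowest ratios were those of Ttll4, a tubulin glutamylase (-0.31, from -0.55 to -0.07), and Mreg (-0.30, from -0.58 to -0.03). Of 10 synapse and excitability genes 3 had at least 100 UMIs: Kcnb2, a voltage-gated potassium channel, at 629 and 622 CPM, Unc80, of the sodium leak channel complex, at 454 and 389 CPM, and the adenosine receptor gene Adora1 at 275 and 250 CPM. Their median log2 ratio was -0.14.

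**Figure D2:**
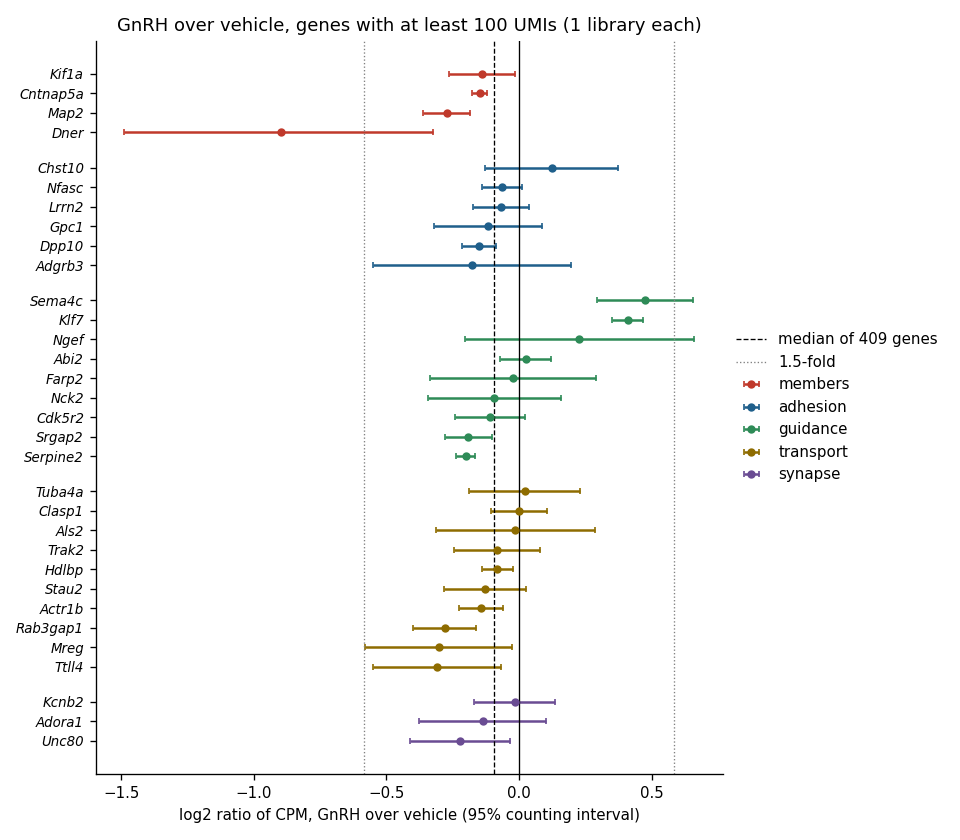
Log2 ratio of CPM, GnRH over vehicle, with 95% counting intervals, of the 4 genes with at least 100 UMIs (red) and of the genes of the related lists with at least 100 UMIs. The dashed line marks the median of the 409 genes, -0.09, and the dotted lines 1.5-fold; of the genes drawn only Dner lies past 1.5-fold, with the widest interval in the plot.

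How evenly the cells carried these transcripts was described by the squared coefficient of variation over the value that Poisson counting gives for the UMI totals of the cells, a ratio that is 1 where counting alone sets the spread. Of the 6 genes 3 (Cntnap5a, Map2 and Kif1a) reached 0.1 UMI per cell on average, the level set for a call. Cntnap5a was past 1.5 in both libraries, at 2.63 with vehicle and 2.89 with GnRH, and the other 2 were past it in neither, which makes 1 of 3 in each library beside 5.81% of 344 genes with vehicle and 6.73% of 342 with GnRH. Map2 was at 1.33 and 1.304 and Kif1a at 1.07 and 1.15, and the median over genes was 1.07 in both libraries. Cntnap5a ranked 3 among the 344 genes and 4 among the 342, Map2 34 and 46, and Kif1a 168 and 99.

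The spread of Cntnap5a went both ways. With vehicle 93 cells had no Cntnap5a UMI, where Poisson counting gave 9.31 cells, and with GnRH 109 cells, where it gave 6.74. Cells with 30 or more UMIs made up 4.27% and 4.02%, where it gave 0.425% and 0.223%. The 10% of cells with most Cntnap5a held 28.3% and 28.6% of its UMIs. After thinning to 300 UMIs the spread was still 2.57 and 2.48 times the expectation. In the first of the 20 thinnings, counts in a cell ran from 0 to 23 with vehicle and 24 with GnRH around medians of 5 and 4. Levels ran over a broad range in both libraries.

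The level of Cntnap5a also differed with the UMI total of the cell. In the lowest, middle and highest of 3 groups of cells ordered by total, it was 16394, 17694 and 20906 CPM with vehicle and 14152, 15409 and 19648 CPM with GnRH. Kif1a was at 1008, 1019 and 1011 CPM with vehicle and 942, 979 and 870 CPM with GnRH, which is flat by comparison. Map2 was at 1797, 1973 and 2136 CPM and at 1540, 1548 and 1812 CPM. The intervals of the lowest and highest group did not overlap for Cntnap5a in either library, and overlapped for Kif1a in both. For Map2 they did not overlap with vehicle (1625 to 1983 and 2015 to 2263 CPM) and overlapped with GnRH. These intervals leave out the spread between cells beyond counting. The part of cell size or cell cycle in this was not tested.

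**Figure D3:**
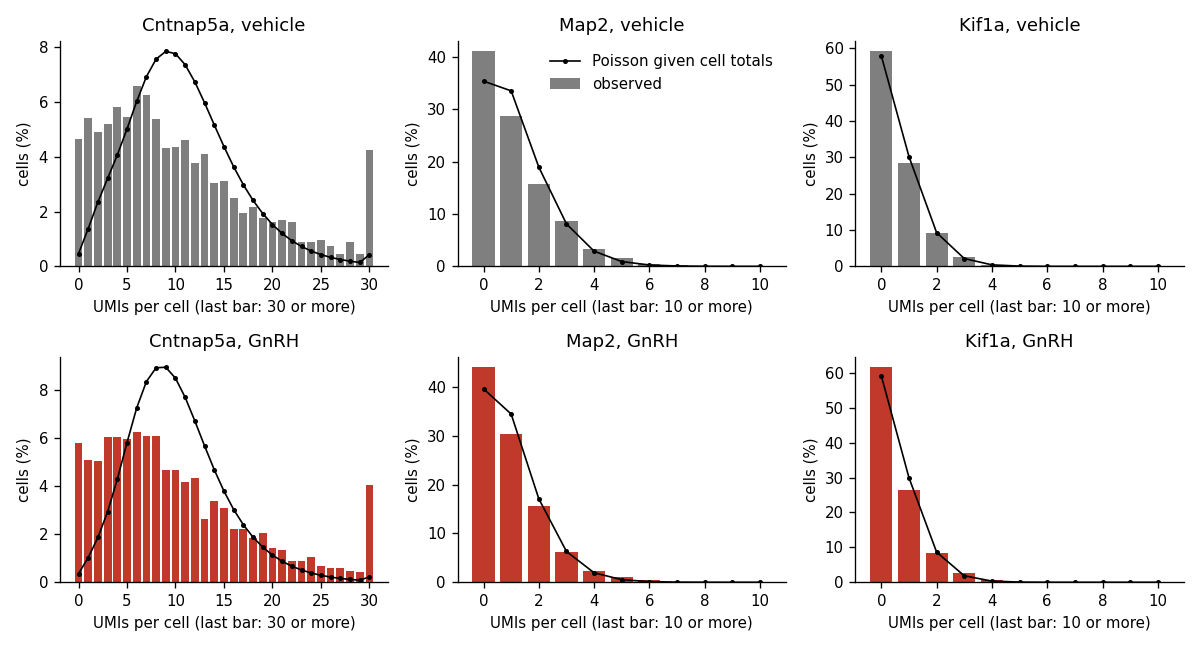
Percent of cells by number of UMIs of Cntnap5a, Map2 and Kif1a in the vehicle (grey) and GnRH (red) library; bars are observed cells and the black line is Poisson counting given the UMI totals of the cells. Cntnap5a has too many cells at both ends, with 4.67% and 5.77% at 0 where 0.468% and 0.357% were expected, whereas Kif1a is closer to the line, with 59.1% and 61.6% at 0 where 57.9% and 59.2% were expected.

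Cells without a Cntnap5a UMI were shallower, with a median of 313 UMIs against 554 in the other vehicle cells and 387 against 572 in the other GnRH cells. Still, 49 of the 93 and 69 of the 109 had at least 300 UMIs. Scg2 was lower in them, at 48821 against 70715 CPM with vehicle and 42615 against 68777 CPM with GnRH. A Dner UMI was found in 6 of the 93 (6.45%) and 8 of the 109 (7.34%), against 2.47% and 1.35% of cells with Cntnap5a. These cells were defined by their counts, so the values are a description of these libraries. The part of depth in them was not tested.

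**Figure D4:**
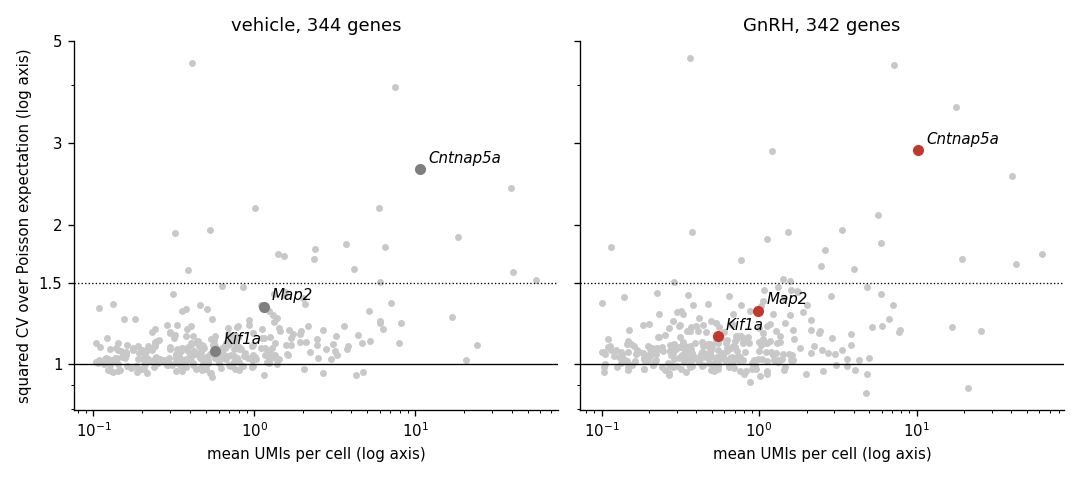
Squared coefficient of variation over its Poisson expectation against mean UMIs per cell (both axes log) for genes averaging 0.1 UMI or more per cell; the solid line marks 1 and the dotted line 1.5. Cntnap5a lies far above the line at 2.63 with vehicle and 2.89 with GnRH, Map2 in the upper part of the cloud at 1.33 and 1.304 and Kif1a within it.

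Dner, below the mean set for a call, was uneven in another way, with few cells holding several molecules. With vehicle 42 cells had 1 Dner UMI, 4 had 2 and 7 had 3 or more, the highest 6. With GnRH 26 cells had 1, 4 had 2 and 2 had 3. Cells with at least 2 numbered 11 and 6, where Poisson counting gave 1.59 and 0.474. The squared coefficient of variation was 2.02 and 1.47 times the expectation, and 1.43 and 1.22 times at 300 UMIs.

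Whether cells rich in one of these transcripts were rich in another was described by Pearson correlation across cells thinned to 300 UMIs, as the mean over 20 thinnings, within each library. The cells of a library share that library, and thinned counts of a fixed total are slightly bound to be opposed. Among Cntnap5a, Map2 and Kif1a, correlations were small. Cntnap5a with Map2 gave 0.06 with vehicle and 0.02 with GnRH (0.093 and 0.063 from residuals of all UMIs), Map2 with Kif1a 0.01 and 0.03 (0.051 and 0.052 from residuals), and Cntnap5a with Kif1a -0.0011 and -0.0002, the last pair with a sign that changed under other settings. At that depth 10.3% of vehicle cells held all 3 transcripts, where the product of their shares gives 10.3%, and 8.07% of GnRH cells, where it gives 7.99%. With Cntnap5a in nearly all of these cells, that share is set almost wholly by Map2 and Kif1a.

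The genes with the highest correlation with each, by the mean of the 2 libraries, were taken from 338 partners. These averaged 0.1 UMI or more per cell in both libraries, and all ranks here are by that mean. For Cntnap5a the highest were the ribosomal protein gene Rpl37a (0.16 with vehicle and 0.14 with GnRH), Dpp10 (0.12 and 0.14) and Tns1, which encodes the focal adhesion protein tensin (0.13 and 0.11). The lowest by that mean was Igfbp2, a secreted binding protein of insulin-like growth factors, at -0.22 and -0.18, though not the lowest in the GnRH library alone. Dpp10, Nfasc (0.10 and 0.11) and Srgap2 (0.09 and 0.11), genes of the adhesion and guidance lists, ranked 2, 5 and 6, but Lrrn2 of the same lists ranked 131 (0.01 in both) and Serpine2 ranked 332 (-0.13 in both). Igfbp5, named after its value was seen, was at -0.10 and -0.09, rank 325. Btg2, the gene that differed most between the treatments, was at 0.00 with Cntnap5a in both.

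By the same mean, Map2 had its highest values with Dtymk (0.05 and 0.06), which makes thymidine nucleotides, Hjurp (0.04 and 0.06), a centromere chaperone, and Ecel1 (0.08 and 0.02). Kif1a had its highest values by that mean with Igfbp2 (0.05 and 0.04), Ecel1 (0.03 and 0.04) and Fam134a (0.02 and 0.04). Values of this size in sparse counts are no finding. Of the 338 partners, 318 of Map2, 336 of Kif1a and 245 of Cntnap5a were within 0.05 of 0 in both libraries.

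Dner, with a mean too low for the rule, had a correlation of -0.09 and -0.08 with Cntnap5a, no larger in size than that of Igfbp5. The 53 and 32 cells with a Dner UMI were compared with the rest, a comparison chosen after the values were seen. They were deeper than the rest with vehicle (medians of 623 and 540 UMIs) and shallower with GnRH (532.5 and 564). Cntnap5a was at 10336 CPM (9254 to 11510) in cells with Dner and 19242 CPM in cells without it with vehicle, a log2 ratio of -0.90 (-1.06 to -0.74). With GnRH it was at 8199 CPM (6936 to 9627) and 17287 CPM, a log2 ratio of -1.08 (-1.32 to -0.84). The median gene of the 339 compared was at -0.12 and -0.09, and Cntnap5a ranked 15 and 24 from the lowest. In the 11 and 6 cells with at least 2 Dner UMIs it was lower still, at 3955 CPM (2649 to 5680) and 2807 CPM (1212 to 5531).

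The difference in Map2 between these cells was within counting error, with log2 ratios of 0.05 (-0.32 to 0.40) and 0.25 (-0.27 to 0.73), and its sign changed with the number of Dner UMIs required. Kif1a was higher in cells with Dner in the vehicle library, at 1650 against 994 CPM, a log2 ratio of 0.73 (0.30 to 1.13), and at 1101 against 917 CPM, 0.26 (-0.45 to 0.90), in the GnRH library, where it was -0.11 in the 26 cells with exactly 1 Dner UMI and 1.42 in the 6 with at least 2. Other genes, again named after their values were seen, differed in the same direction in both libraries. Igfbp2 was higher, at 61829 against 31733 CPM and 75116 against 31955 CPM, and so was Tmem37, a calcium channel subunit-like protein, at 1743 against 518 and 1871 against 482 CPM, the highest log2 ratio of the 339 genes in both (1.75 and 1.96). The tubulin gene Tuba4a was higher too (1.39 and 1.67).

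Of the gonadotrope markers, Inha had log2 ratios of -0.92 (-1.48 to -0.41) and -0.83 (-1.52 to -0.21) in cells with Dner, ranks 14 and 39 from the lowest. With at least 2 Dner UMIs its intervals ran from -2.25 to 0.11 and from -4.60 to 0.31. Inhbb was at -0.74 (-1.11 to -0.40) and -0.53 (-1.04 to -0.06), ranks 28 and 76. Dpp10, an adhesion list gene, was at -0.74 and -1.27. Scg2 was at -0.26 and -0.48, ranks 114 and 83 from the lowest of the 339 genes. With vehicle the Scg2 value came from few cells: it was -0.08 in the 42 cells with exactly 1 Dner UMI, near the median gene, and -1.17 in the 11 cells with at least 2. Btg2 was at 1245 against 922 CPM with vehicle, where the intervals overlapped, but at 16234 CPM (14434 to 18196) against 30179 CPM (29856 to 30506) with GnRH. In the 6 GnRH cells with at least 2 Dner UMIs it was at 3509 CPM (1683 to 6453), from 10 UMIs. The other early response gene, Coq10b, was at 2476 CPM (1806 to 3314) in cells with Dner and 3007 CPM in those without with GnRH, a log2 ratio of -0.28 (-0.74 to 0.14). Of the 339 genes, 16 were at least 1.5-fold lower and 12 at least 1.5-fold higher in cells with Dner in both libraries. The intervals for cells with Dner treat UMIs as independent and leave out the spread between cells. With GnRH that spread was 3.59 times the Poisson expectation for Btg2 and 2.89 times for Cntnap5a. No replicate check exists for any of these differences, doublets were not called, and the part of free RNA or of cell state in them was not tested.

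**Figure D5:**
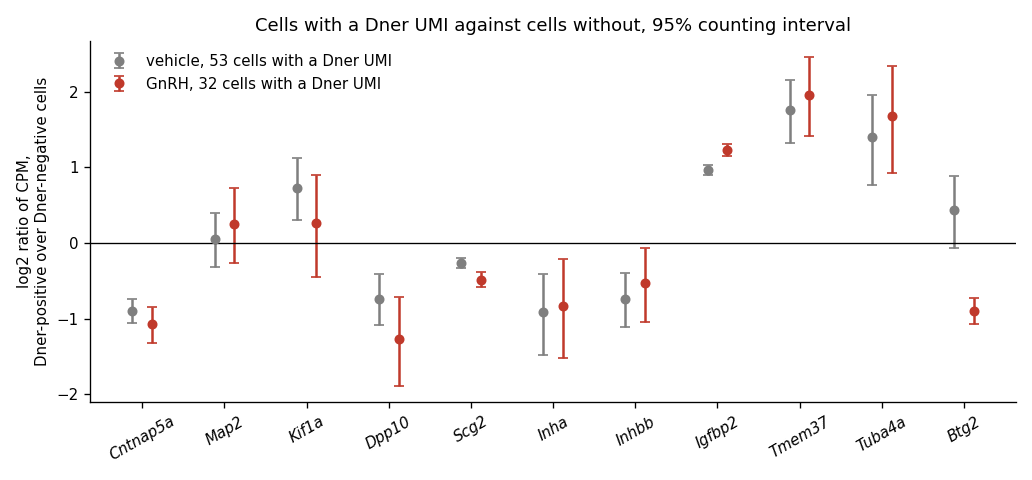
Log2 ratio of CPM, cells with at least 1 Dner UMI over cells with none, in the vehicle (grey, 53 cells with Dner) and GnRH (red, 32 cells) library, with 95% counting intervals. Cntnap5a, Dpp10, Scg2, Inha and Inhbb lie below 0 and Igfbp2, Tmem37 and Tuba4a above 0 in both libraries, whereas Btg2 lies below 0 with GnRH and at 0.43 with vehicle.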

How the data were processed

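LβT2 cells were treated with vehicle or 2 nM GnRH and profiled by 10x Genomics 3′ chemistry, 1 library each. Per the submitters' processing notes, Cell Ranger 1.3 and mm10 were used, and the authors deposited whole-number UMI counts of each gene in each cell, not normalized. The annotation used and the use of strand are not given in the sources used here. The table analysed held 1068 of 27998 listed genes (3.81%), and 1 incomplete row was left out. Cells were numbered, so barcodes shared by the libraries could not be counted.

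UMIs were summed per library and scaled to CPM of the analysed genes. Intervals (95%) were exact Poisson for sums, Clopper-Pearson for shares of cells and exact conditional binomial for ratios, and cover counting error only. With 1 library per group, no test was run and no p-value is given. Genes were called by size: 2-fold or 1.5-fold in either direction, among genes that reached 100 UMIs in the 2 libraries together. For ratios a sum of 0 counted as 3 UMIs, and genes with both sums of 3 or fewer got no ratio. Shares, correlations and spread at equal depth are means over 20 random thinnings to 300 UMIs. A spread was called at 1.5 times its expectation, among genes averaging 0.1 UMI or more per cell. No doublet caller was run, and leaving out the 5% of cells with most UMIs served as an alternative. Scripts were tested on simulated data. The 6 genes, the lists and the rules were chosen with earlier results of these data known. Genes named were the 6, list genes with at least 100 UMIs, Btg2 and Coq10b, and the 3 best correlated partners of each abundant gene; others are marked where named. Coq10b, the other early response gene, was at 629 and 2999 CPM. Positions came from GENCODE M21 (GRCm38) and promoters from RefSeq (GRCm38.p6). Python 3.11.15, numpy 2.4.6, scipy 1.17.1, pandas 2.3.3 and, for TMM factors, edgeR 4.0.16 in R 4.3.3 were used.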

Additional observations from a re-analysis of the deposited data

How the results depend on the processing

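No paired analysis was possible because there was a single library per group. Among the 6 genes, no ratio of GnRH over vehicle that was formed changed direction, and neither did that of Cntnap5a in cells with Dner. Other genes did change direction with the scaling: 305 of the 409 were below 0 as given and 207 under TMM. In cells with Dner, the log2 ratio of Map2 was -0.15 with vehicle for exactly 1 Dner UMI and -2.25 with GnRH for at least 2 (from 1 UMI), and that of Kif1a -0.11 with GnRH for exactly 1, against positive values over all cells with Dner. The correlation of Cntnap5a with Kif1a, near 0, changed sign at 400 UMIs (0.017 with vehicle and 0.014 with GnRH), from residuals of all UMIs (0.020 and 0.012) and, with vehicle, without the 5% of cells with most UMIs (0.00054). Of 170 values, 128 stayed within their interval (for correlations, the range over thinnings; for counts of genes, 1.5 times) and 42 moved beyond it, as follows. The log2 ratio of Cntnap5a was -0.067 under median-of-ratios scaling, -0.056 under TMM, -0.18 as the mean of CPM per cell, -0.081 unscaled, -0.18 without the 5% of cells with most UMIs and -0.11 when totals excluded Btg2; that of Map2 was -0.18 under TMM. With a minimum of 20 UMIs, 10 genes were 2-fold and 35 genes 1.5-fold different, and with 500 UMIs 10 were 1.5-fold different. Shares followed depth. Unthinned, at 200 and at 400 UMIs they were, for Cntnap5a, 95.3%, 89.6% and 96.6% with vehicle and 94.2%, 87.4% and 95.3% with GnRH; for Map2 59.0%, 31.2% and 52.1%, and 56.0%, 27.2% and 45.4%; for Kif1a 40.9%, 18.2% and 32.5%, and 38.4%, 16.6% and 29.3%; for Dner, unthinned, 2.66% and 1.69%. Against a plain Poisson expectation, which ignores cell totals, the spread of Cntnap5a was 7.37 and 7.01 and that of Map2 1.58 with vehicle, and 67 vehicle and 61 GnRH genes were called. At 300 UMIs the spread of Dner was 1.43 with vehicle and 13 GnRH genes were called. From residuals of all UMIs, the correlation of Cntnap5a with Map2 was 0.063 with GnRH (and 0.093 with vehicle, inside its range) and that of Map2 with Kif1a 0.051 with vehicle. In alternatives chosen after seeing the data, the log2 ratio of Cntnap5a in cells with Dner was -2.28 and -2.62 with at least 2 Dner UMIs, and -0.65 with vehicle for exactly 1. The depth limits Dner, Epha4 and Nrp2 above all.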
